A study of Mus musculus with 24 samples.

Results

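The collagen genes of the mouse were examined for sites of MYT1L, a zinc finger transcription factor of neurons that is known mainly as a repressor of non-neuronal genes. The members were the protein-coding genes whose symbol is Col, a type number, the letter a and a chain number, and 44 of 21938 annotated protein-coding genes met this rule. Collagens are extracellular matrix proteins made of chains with a repeated Gly-X-Y unit, of which several wind into a triple helix. Fibrillar collagens assemble into the cable-like fibrils of connective tissue, fibril-associated collagens decorate those fibrils, and type IV collagens form the meshwork of basement membranes. In the cortex most collagen is made by fibroblasts of the meninges and by cells of the vessel wall, while a few members, such as Col19a1 and Col25a1, are known from neurons. Few collagen genes had a site near a transcription start, and those that did were not shared by more than 2 of the 4 deposited lists. Sites inside the genes were found at 13 to 27 members per list, but per length they were fewer than over all genes, which were not matched for length. In adult WT cortex this gap was within counting error.

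Binding was measured with CUT&RUN, which uses an antibody to bring a nuclease to a protein on chromatin and sequences the DNA cut loose around it. The labels give all mice as C57BL/6J, while the supplementary methods name C57BL/6N for the zygotes and for breeding. The groups were wild-type (WT) cortex at embryonic day E18.5, WT prefrontal cortex at birth (P0) and in 3-month-old adults, and prefrontal cortex of 3-month-old adults heterozygous (HET) for a germline, CRISPR-made frameshift deletion in the opening coding exon of Myt1l. The heterozygotes therefore kept a WT allele in all cells. Each group had 3 MYT1L libraries and 3 libraries with control IgG, 24 samples in all, and 1 merged list of MYT1L sites per group was used, which held 14477 sites for E18.5, 40698 for P0, 32145 for adult WT and 56937 for adult HET cortex. The methods name prefrontal cortex for all stages. Some adult titles read Myt2l or Myt3l, but the descriptions of those samples name the Myt1l list. Samples of E18.5 and P0 came from sequencing run 1 and adult samples from run 2, and these effects of stage and run cannot be told apart. The lists held positions without height, score or replicate, and their depth was unknown, so counts below have no replicate error and no test was made. Bulk cortex holds many cell types, and a site found in few cells cannot be told apart from a weak site in many.

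Sequences of build mm10 are given here for the sites the results turn on, all of them outside annotated exons of protein-coding genes. The sequence at Col27a1, which encodes a fibrillar collagen of cartilage, was common to the sites of all 4 lists, and it is in intron 24 of a transcript with 61 exons. At Col22a1, a collagen of tissue junctions, the stretch was shared by the E18.5, P0 and adult WT sites in intron 59 of a transcript with 64 exons, and capitals mark TTGGCA, a word that nuclear factor I proteins bind. At Col1a1, which encodes a chain of type I collagen and was picked after its values were seen, the stretch was shared by the P0 and adult HET sites in intron 1, and capitals mark the core motif of CTCF, an insulator protein.
Col27a1, chr4:63291069-63291289, plus strand: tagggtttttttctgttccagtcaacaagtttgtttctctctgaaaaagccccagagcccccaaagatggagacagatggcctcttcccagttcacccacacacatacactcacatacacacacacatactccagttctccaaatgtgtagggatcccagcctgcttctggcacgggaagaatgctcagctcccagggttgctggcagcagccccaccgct
Col22a1, chr15:71810560-71810727, plus strand: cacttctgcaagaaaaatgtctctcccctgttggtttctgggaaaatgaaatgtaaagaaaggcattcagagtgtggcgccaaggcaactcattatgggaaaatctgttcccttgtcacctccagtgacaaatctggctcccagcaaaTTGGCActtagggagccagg
Col1a1, chr11:94937171-94937303, plus strand: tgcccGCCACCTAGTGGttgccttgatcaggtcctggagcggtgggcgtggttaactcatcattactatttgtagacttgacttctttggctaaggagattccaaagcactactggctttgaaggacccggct

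The next 6 sequences are the 151 bp around the midpoint of P0 sites that lay within 5 kb of a collagen start and held AAAGTT, the core word of the MYT1L motif. Capitals mark this word, which reads AACTTT when it is on the opposite strand.
Col5a2, chr1:45501506-45501656, plus strand: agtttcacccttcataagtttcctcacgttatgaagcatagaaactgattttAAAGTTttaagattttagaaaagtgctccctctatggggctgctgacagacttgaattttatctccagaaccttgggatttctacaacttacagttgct
Col5a1, chr2:27885935-27886085, plus strand: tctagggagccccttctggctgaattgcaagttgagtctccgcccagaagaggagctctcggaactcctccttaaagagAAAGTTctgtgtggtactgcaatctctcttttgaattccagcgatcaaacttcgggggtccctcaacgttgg
Col11a1, chr3:114031808-114031958, plus strand: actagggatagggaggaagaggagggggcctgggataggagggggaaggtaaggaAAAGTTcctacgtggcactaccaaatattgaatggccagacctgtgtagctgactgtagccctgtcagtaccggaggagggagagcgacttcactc
Col23a1, chr11:51289566-51289716, plus strand: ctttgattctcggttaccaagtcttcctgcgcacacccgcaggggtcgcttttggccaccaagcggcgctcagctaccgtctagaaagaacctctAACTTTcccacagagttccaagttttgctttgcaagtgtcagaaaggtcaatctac
Col12a1, chr9:79723162-79723312, plus strand: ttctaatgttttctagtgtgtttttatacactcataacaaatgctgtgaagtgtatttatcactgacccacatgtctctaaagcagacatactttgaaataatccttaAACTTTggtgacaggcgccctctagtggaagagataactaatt
Col26a1, chr5:136881429-136881579, plus strand: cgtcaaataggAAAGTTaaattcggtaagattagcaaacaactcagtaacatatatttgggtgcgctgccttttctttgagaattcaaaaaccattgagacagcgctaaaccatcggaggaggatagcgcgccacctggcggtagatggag

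A gene was called a target of a list when a site reached to 5 kb or less from any start of its annotated transcripts. At E18.5, 3 of 44 collagen genes (6.82%) were targets, where 30% of all protein-coding genes were. At P0 the number was 11 (25%), beside 45.9% of all genes. In adult WT cortex 2 members (4.55%) were targets, beside 20.1%, and in adult HET cortex 4 (9.09%), beside 23.4%. The collagen share was thus below that of all genes in each list. It stayed below in all 20 pairs of list and varied setting when distance, site width, repeat content or the set of transcripts was varied.

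Promoters rich in CpG, with a GC content of at least 50% and at least 0.6 of the CpG dinucleotides expected from base composition within 500 bp of the most upstream start, were less frequent among collagens. They were found at 12 of 44 members (27.3%) and at 46% of all genes. Among these 12, E18.5 had 2 targets, P0 had 5, adult WT cortex had 1 and adult HET cortex had 0, that is 16.7%, 41.7%, 8.33% and 0%. The shares of all genes with such promoters were 50.1%, 72%, 27.2% and 25.9%. Among the 32 other members 1, 6, 1 and 4 were targets, or 3.12%, 18.8%, 3.12% and 12.5%, beside 12.9%, 23.8%, 14% and 21.3% of all genes with other promoters. Within both promoter classes the collagen share was the lower in all 4 lists. By gene length, 9.09%, 54.5%, 18.2% and 27.3% of the 11 members over 150 kb were targets, beside 33.6%, 63.4%, 30% and 31.2% of such genes. For the 18 members of 50 to 150 kb it was 11.1%, 22.2%, 0% and 0%, beside 37.1%, 59.1%, 25.2% and 27.1%. For the 14 members of 10 to 50 kb it was 0%, 7.14%, 0% and 7.14%, beside 33.5%, 50%, 20% and 22.7%.

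**Figure D1:**
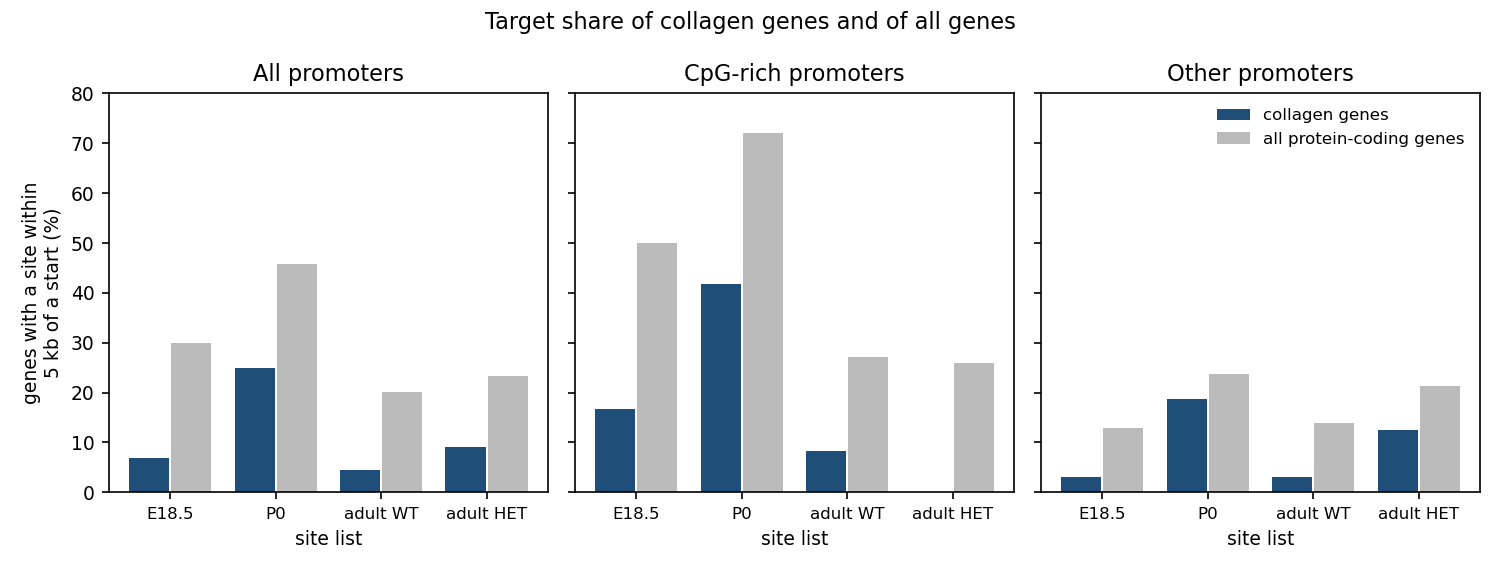
Percent of genes called targets (a site at most 5 kb from a start) in each of the 4 lists, for the 44 collagen genes (blue) and all 21938 protein-coding genes (grey), over all promoters and split into CpG-rich and other promoters. The blue bar is below the grey bar throughout, and no collagen gene with a CpG-rich promoter was a target in adult HET cortex.

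No collagen gene was a target in 3 or 4 lists, where 12.1% and 4.75% of all genes were. This depended on the rule. With the starts of all GENCODE transcripts, Col9a1 (E18.5, P0 and adult WT) and Col26a1 (P0 and both adult lists) were targets of 3 lists. At 10 kb, Col5a2 and Col15a1 were targets at E18.5, at P0 and in adult WT cortex. The counts that follow are for the 5 kb rule. There were 8 targets of 2 lists (18.2% of members, 20.1% of all genes) and 4 of 1 list (9.09%, 23.8%). The remaining 32 members (72.7%) were targets of none, beside 39.2% of all genes. Of the 12 targets 11 were found at P0, the exception being Col24a1.

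Fibrillar collagens made up 6 of the 12. Col5a2, which encodes a chain of the type V collagen that controls fibril diameter, was a target at E18.5 and P0. Its E18.5 site of 511 bp had its midpoint 1692 bp downstream of the start, and a P0 site of 299 bp lay at 1701 bp. A further P0 site of 315 bp covered the start itself, with its midpoint at 95 bp. Col5a1, which encodes the partner chain, had a P0 site of 235 bp 415 bp upstream and an adult WT site of 132 bp 2358 bp upstream, which did not overlap. At Col1a1 the P0 site (244 bp wide, 1012 bp downstream) contained the adult HET site (133 bp wide, 1013 bp downstream). Col11a1, which encodes a chain of the type XI collagen of cartilage fibrils, had P0 sites 83 bp upstream and 1343 bp downstream, and adult HET sites 1242 bp upstream and 3888 bp downstream. Col27a1 had a P0 site of 393 bp over its start. Col24a1, a minor fibrillar collagen, had only an adult HET site of 118 bp 3736 bp upstream. Type V and XI chains, which assemble within other fibrils, gave 3 of these 6 genes, while Col5a3 and Col11a2 of the same types were targets of no list. Of the type I pair only Col1a1 was a target.

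Fibril-associated collagens gave 3 targets of 9 members. Col12a1, a collagen of tendon and bone surfaces, was a target at E18.5 and P0 through overlapping sites of 400 and 364 bp, 4515 and 4517 bp upstream. P0 had 2 more sites there, 2606 bp upstream and 1323 bp downstream of the nearest start. Col14a1, which binds the surface of fibrils, had a P0 site 1209 bp and an adult WT site 3769 bp upstream. The adult WT site was 103 bp wide and lay wholly in repeat sequence. Col19a1, which is made by subsets of interneurons and is involved in synapse formation, had a P0 site of 139 bp 870 bp downstream and adult HET sites 271 bp and 5000 bp upstream, the latter at the edge of the window. Except at Col12a1, the sites of different lists near these starts did not overlap.

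Outside those classes 3 members were targets. Col23a1, a collagen that spans the cell membrane, was a target at E18.5 and P0 through overlapping promoter sites of 588 and 316 bp, 294 and 279 bp upstream, and P0 had another site 4735 bp downstream. Col26a1 and Col28a1, which belong to none of the large classes, were targets at P0 only, with sites 1617 bp and 3528 bp downstream. None of the 6 type IV collagens, 6 type VI collagens, 3 short-chain collagens and 2 multiplexins (collagens with interrupted helices, found in basement membranes) was a target of any list. No start of another gene lay within 5 kb of the sites named here.

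**Figure D2:**
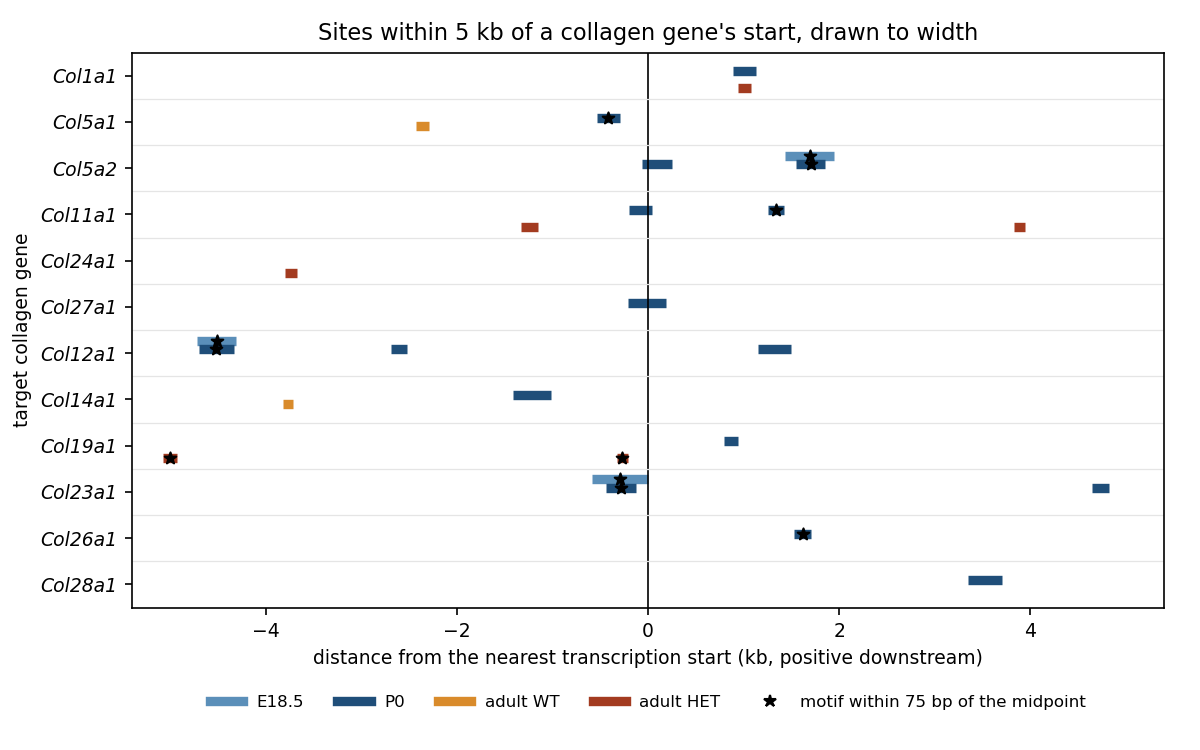
Sites of the 4 lists (colours) at the 12 target collagen genes, by distance of the site from the nearest transcription start in kb, with negative values upstream; bar length is site width and a star marks AAAGTT within 75 bp of the midpoint. The E18.5 sites at Col5a2, Col12a1 and Col23a1 coincide with P0 sites, and the 2 adult WT sites stand upstream of the starts without overlapping any other.

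Under the 5 kb rule the targets of adult WT and adult HET cortex had no member in common. Col5a1 and Col14a1 were targets in WT only, and Col1a1, Col11a1, Col19a1 and Col24a1 in HET only. Over all genes, 38.8% of the WT targets were HET targets too and 33.2% of the HET targets were WT targets. The 2 WT sites behind these calls were 103 and 132 bp wide, under the list median of 167 bp, and the 6 HET sites were 108 to 183 bp wide, at or above the list median of 108 bp. With 1 merged list per genotype, a difference between genotypes cannot be told apart from one between libraries. Adult targets were also sensitive to the annotation. With the starts of all GENCODE transcripts, a setting chosen after seeing the data, 7 members were WT targets and 11 were HET targets. The shares of all genes were 24.6% and 30.4%. Col26a1 was then a target of both adult lists, and at 10 kb Col22a1 was. At 1 kb none was left in WT and 2 (4.55%) were in HET, beside 11.8% and 9.01% of all genes.

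Sites within gene bodies were found at more members. At E18.5, 13 of 44 members (29.5%) held a site between gene start and end, beside 32.7% of all genes. At P0 it was 27 (61.4%, beside 48.4%), in adult WT cortex 24 (54.5%, beside 29.6%) and in adult HET cortex 27 (61.4%, beside 36.7%). Collagen genes are long, with a median of 114 kb against 17.4 kb for all genes, so these shares were set beside genes of like length. Of the 11 members over 150 kb, 5, 10, 10 and 11 held a site in the 4 lists in the order above, which is 45.5%, 90.9%, 90.9% and 100% beside 70.1%, 93%, 91.6% and 97.6% of all genes of that length. Of the 18 members of 50 to 150 kb, 7, 14, 12 and 14 did, or 38.9%, 77.8%, 66.7% and 77.8% beside 46.9%, 73.6%, 60.4% and 76.3%. The 14 members of 10 to 50 kb held fewer, with 1, 3, 2 and 2 genes, or 7.14%, 21.4%, 14.3% and 14.3% beside 33.3%, 51%, 25.3% and 34.4%. At P0 and in the adults the long collagens were therefore near the share of their length class, and the short ones were below it.

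Per length the collagens held fewer sites than genes in general. Unlike the shares above, these rates were not set beside genes of like length, and the part of gene length in them was not tested. E18.5 sites came to 0.280 per 100 kb of collagen body (15 midpoints, exact 95% interval 0.156 to 0.461 for counting error), beside 0.642 over all genes. P0 gave 1.10 (0.837 to 1.42) beside 1.97, adult WT 1.06 (0.805 to 1.38) beside 1.37, and adult HET 1.77 (1.43 to 2.16) beside 2.17. The rate over all genes was thus within the counting interval for adult WT, just above it for adult HET, and well above it at E18.5 and P0. The collagen rate divided by the overall rate was 0.435 for E18.5, 0.559 for P0, 0.778 for adult WT and 0.816 for adult HET sites. By class, the 6 type IV genes had the lowest rate of those classes with more than 3 members at E18.5 and P0, with 0 and 0.382 sites per 100 kb, and 0.955 and 1.34 in the adult lists. The 2 multiplexins went the other way, with 1.82 and 2.74 per 100 kb at E18.5 and P0 and 0.456 in both adult lists, but these rates rest on 4, 6, 1 and 1 sites.

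**Figure D3:**
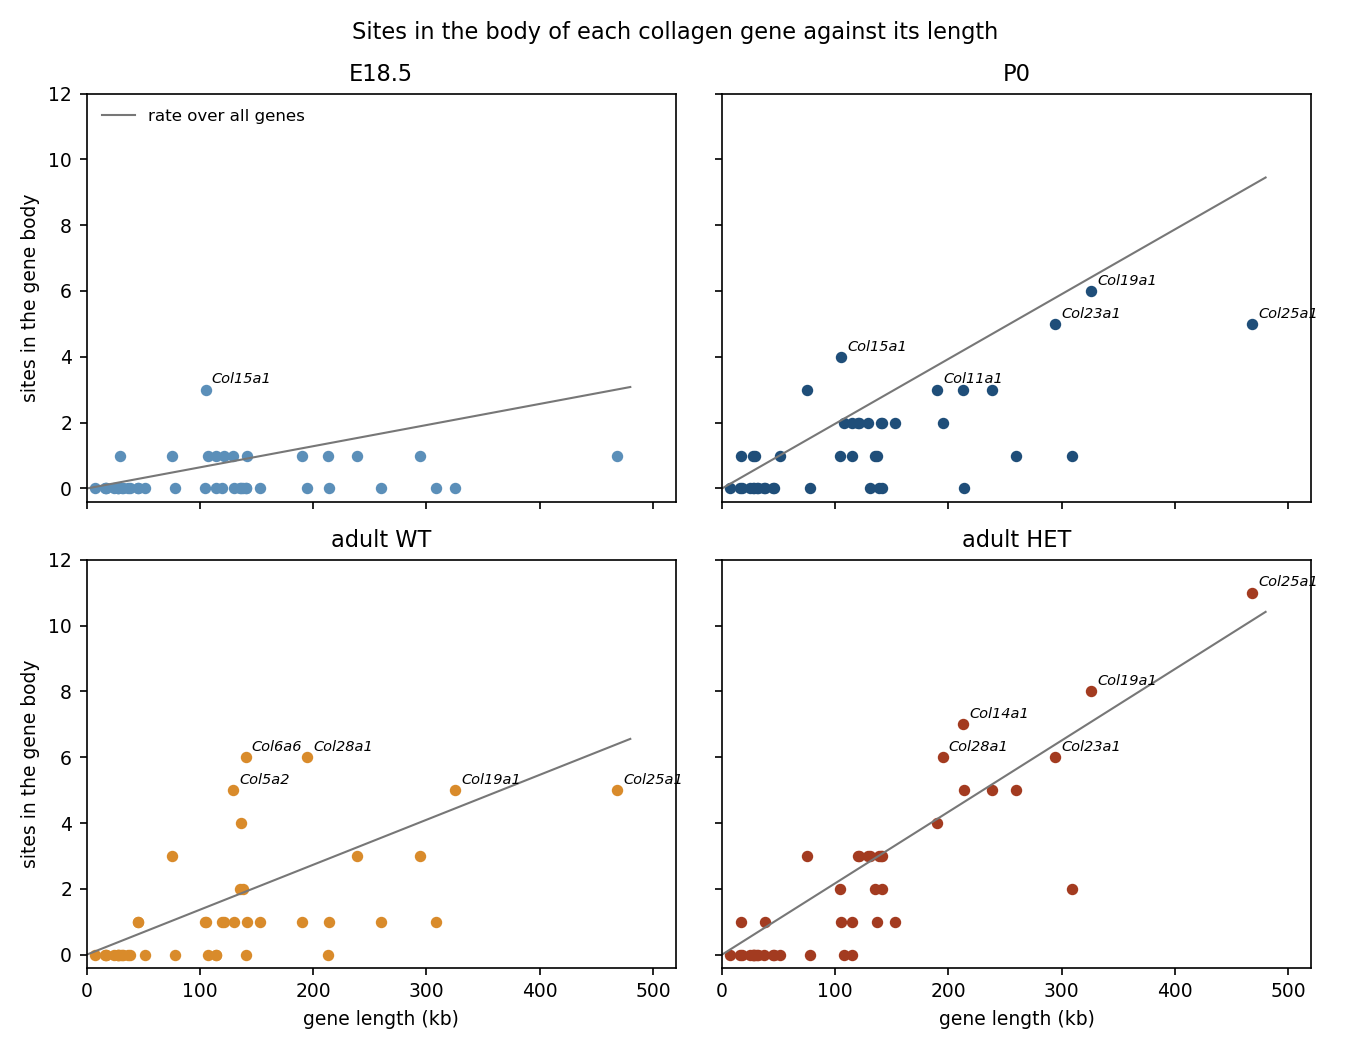
Number of sites in the body of each of the 44 collagen genes against gene length in kb, 1 panel per list; the line is the rate over all protein-coding genes, and the genes with the most sites are named where they had more than 1. Most points lie below the line in each panel, and the genes above it in adult HET cortex include Col25a1, Col19a1 and Col14a1.

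The most body sites were found in Col25a1, the longest member at 468 kb, which encodes a membrane collagen of neurons that takes part in motor innervation. The E18.5 list had 1 site in it, P0 had 5, adult WT had 5 and adult HET had 11, with none within 5 kb of its start. Of the 11 HET sites 6 lay in intron 2. Col19a1 (326 kb) held 0, 6, 5 and 8 sites, and Col23a1 (294 kb) held 1, 5, 3 and 6. These 3 genes had their highest counts in the HET list, which was also the longest list. Col14a1 held 1, 3, 0 and 7 sites, and Col28a1 held 0, 2, 6 and 6. Col6a6, which encodes a chain of type VI collagen, and Col5a2 were highest in adult WT cortex, with 0, 2, 6 and 3 and with 1, 2, 5 and 3 sites. Col15a1, a multiplexin of basement membranes, ran against this order with 3, 4, 1 and 1 sites, and was the member with most sites at E18.5. The genes with most sites thus differed between E18.5 and the adult lists.

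The 13 members with a body site at E18.5 were all among the 27 of P0, where 93.4% of all genes with an E18.5 body site had one at P0. In both adult lists 22 members had body sites, which is 91.7% of the 24 in WT and 81.5% of the 27 in HET, beside 65.9% and 53.2% over all genes. Collagen genes are longer than most, and the part of length in these shares was not tested.

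**Figure D4:**
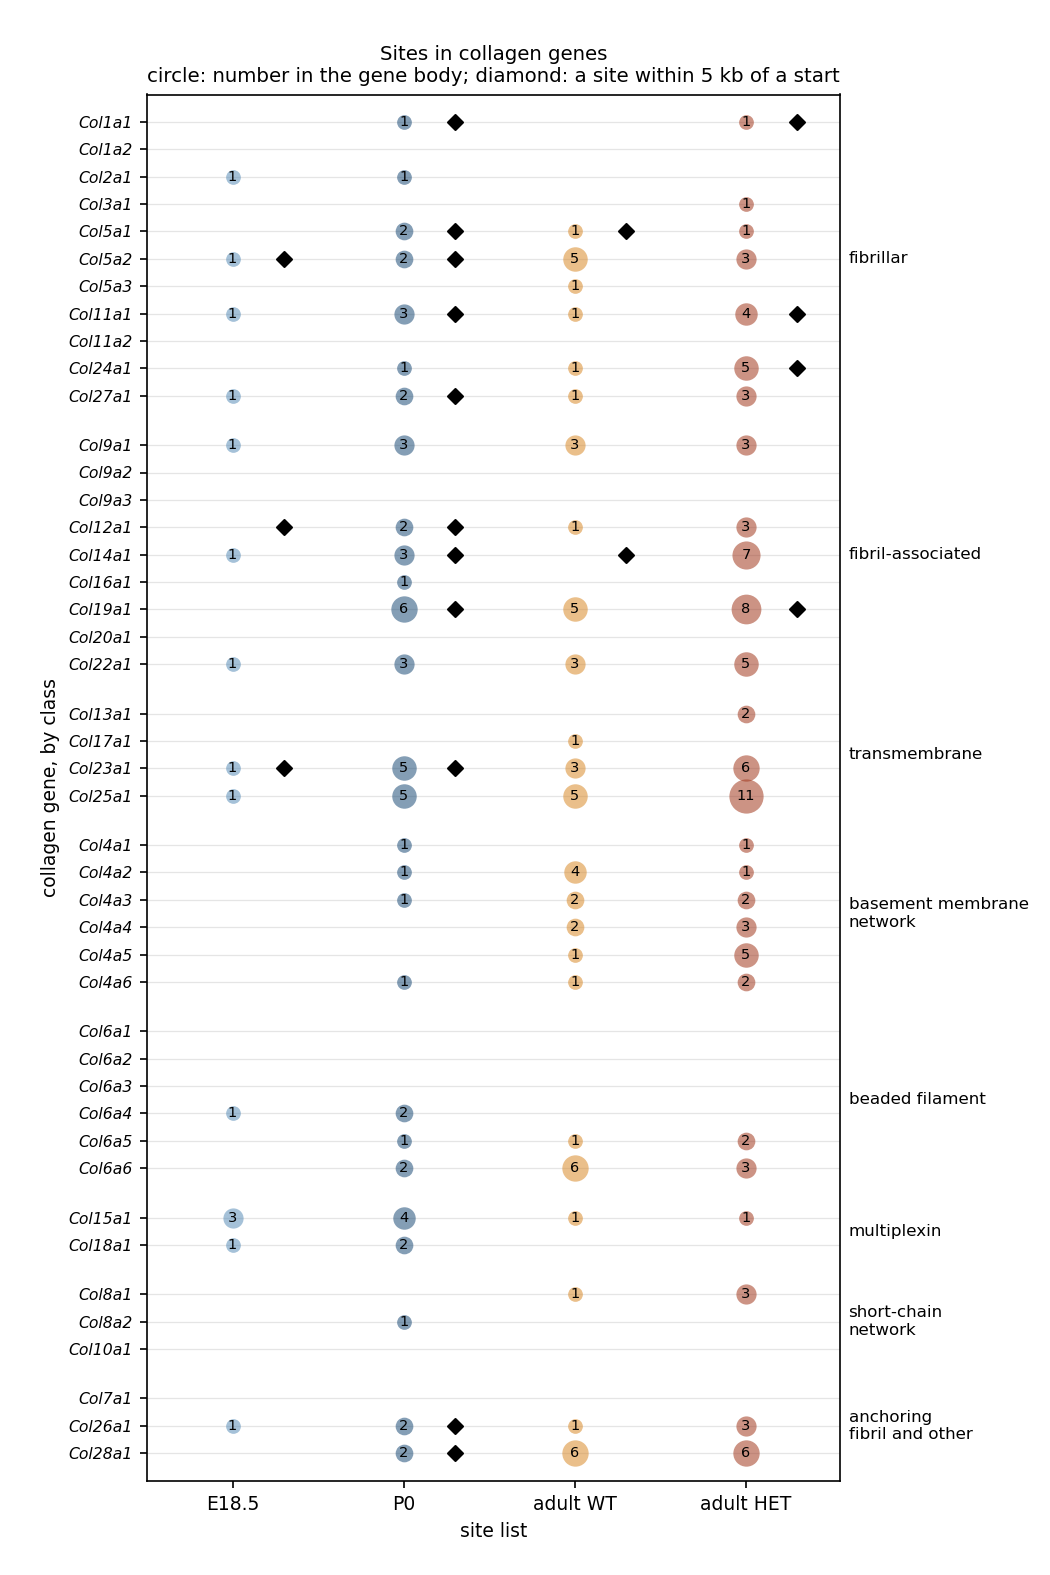
Sites at each of the 44 collagen genes (rows, grouped by class) in the 4 lists (columns): the number and size of a circle give the sites in the gene body, and a diamond marks a target, with at least 1 site near a start. Diamonds are most frequent in the P0 column, type IV genes have circles but no diamonds, and 10 genes have neither.

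The type IV genes are transcribed in pairs from shared promoters between divergent starts, and their products form the heterotrimers of basement membranes. At the Col4a1 and Col4a2 pair, the chains of nearly all vessels, the nearest site to the start of Col4a1 was 120023 bp away for E18.5, 86779 bp for P0, 17831 bp for adult WT and 28615 bp for adult HET cortex. For Col4a3 and Col4a4, known from kidney and other specialised membranes, the distances from the Col4a3 start were 140021, 43931, 38105 and 35721 bp. For the X-linked pair Col4a5 and Col4a6 they were 518359, 237843, 46774 and 12311 bp from the nearest Col4a5 start. All 3 pairs were thus without a nearby site in the 4 lists. Within their bodies Col4a2 held 0, 1, 4 and 1 sites and Col4a5 held 0, 0, 1 and 5, the highest counts of the class.

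For 10 members (22.7%, beside 28.2% of all genes) no site was found in the body or within 5 kb of a start in any list. By length this was 8 of the 14 members of 10 to 50 kb (57.1%, beside 23.5%) and 1 of the 18 of 50 to 150 kb (5.56%, beside 3.94%). They were Col1a2, the partner chain of type I collagen, Col6a1, Col6a2 and Col6a3, the main chains of type VI collagen around cells, and Col7a1 of skin anchoring fibrils. The others were Col9a2, Col9a3, Col10a1 and Col11a2 of cartilage, and Col20a1, a fibril-associated collagen. Their lengths ran from 7.11 to 78.0 kb with a median of 27.6 kb, against a median of 133 kb for the 34 members with a site, and none of the 10 had a CpG-rich promoter. Chains of 1 trimer were thus on both sides, as Col1a1 had sites and Col1a2 had none.

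There were 17 sites at members for E18.5, 65 for P0, 59 for adult WT and 99 for adult HET cortex. Their median widths were 502, 244, 159 and 105 bp, beside 593, 276, 167 and 108 bp for the whole lists. Introns held 82.4%, 84.6%, 93.2% and 90.9% of them, where introns held 31.2%, 38.7%, 39.8% and 36.7% of all sites, a comparison that the choice of sites within genes largely sets. In promoters, taken as 1 kb upstream to 100 bp downstream of a start, lay 1, 5, 0 and 1 sites (5.88%, 7.69%, 0% and 1.01%), beside 31.5%, 19.97%, 6.22% and 2.49% of all sites. The choice of sites within long genes shapes this comparison too. Of the E18.5 sites 15 of 17 (88.2%, exact 95% interval 63.6% to 98.5%) overlapped a P0 site, beside 88.3% of all E18.5 sites. Of the P0 sites 15 of 65 (23.1%) overlapped an E18.5 site, beside 34.8%. Between the adult lists 3 of 59 WT sites (5.08%) overlapped a HET site, beside 8.38%, and 3 of 99 HET sites (3.03%) overlapped a WT site, beside 4.90%. At the collagens the E18.5 sites were therefore nearly contained in the P0 list, as in the genome as a whole, while the adult lists shared few sites.

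Merged over the 4 lists, the sites at members gave 216 loci, of which 197 (91.2%) were in 1 list, beside 86.3% of all loci. There were 16 in 2 lists (7.41%, beside 10.97%), 1 in 3 (0.463%, beside 2.22%) and 2 in all 4 (0.926%, beside 0.485%). At Col27a1 the 4 sites in intron 24 were 664 bp wide for E18.5, 361 bp for P0, 491 bp for adult WT and 221 bp for adult HET cortex, and the last lay within the others. The locus in intron 59 of Col22a1 was 1101 bp for E18.5, 435 bp for P0, 168 bp for adult WT and 102 bp for adult HET cortex, but here the HET site overlapped the E18.5 site alone. In intron 28 of Col9a1, a cartilage collagen, an E18.5 site of 990 bp overlapped a P0 site of 496 bp and an adult WT site of 176 bp that did not touch each other. These loci were far from the starts used in the 5 kb rule. With the starts of all GENCODE transcripts, however, Col9a1 was a target of the same 3 lists. Of the 16 loci in 2 lists 12 were shared by E18.5 and P0, beside 9630 of 13347 such loci genome-wide.

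**Figure D5:**
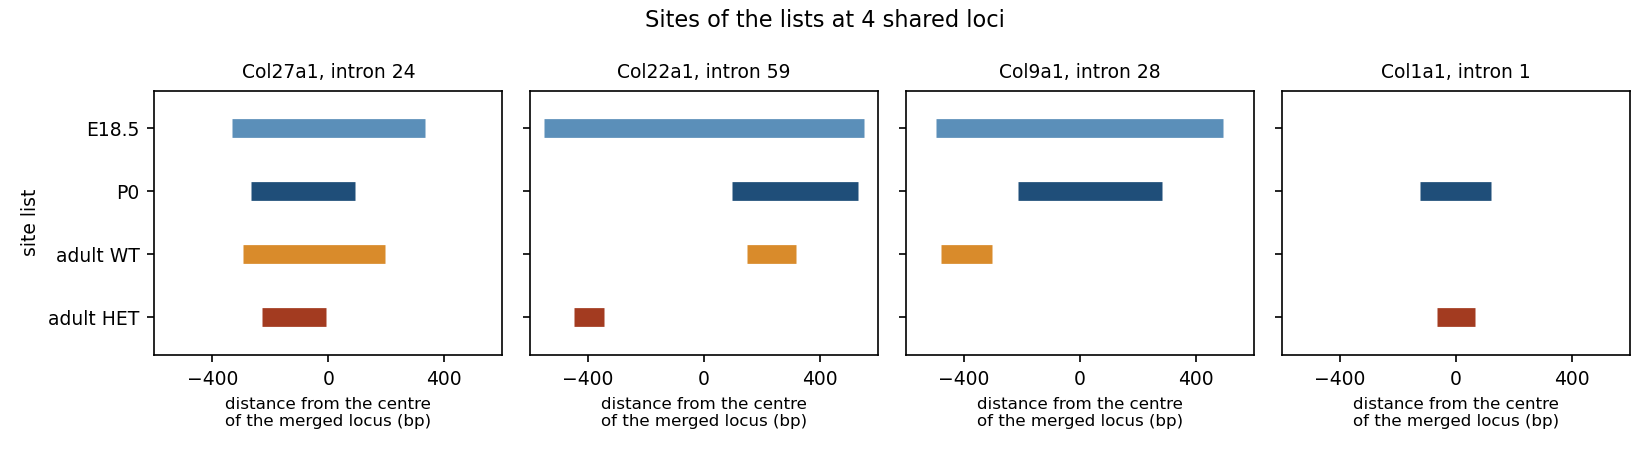
Extent of the sites of each list at loci in Col27a1, Col22a1, Col9a1 and Col1a1, in bp from the centre of the merged locus; bars are drawn to width and the lists are rows. At Col27a1 the 221 bp adult HET site lies inside the other 3 sites, while at Col22a1 it overlaps the E18.5 site only.

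AAAGTT, read on both strands within 75 bp of the site midpoint, was held by 4 of 17 member sites at E18.5 (23.5%, exact 95% interval 6.81% to 49.9%), beside 15.2% of all sites of the list. At P0 it was 16 of 65 (24.6%, 14.8% to 36.9%), beside 14.6%. In adult WT cortex 8 of 59 held it (13.6%, beside 13.8%) and in adult HET cortex 17 of 99 (17.2%, beside 14.5%). P0 was the only list whose interval left out the share over all sites, which was just under its lower bound. That share was not matched for position: 38.2% of all P0 sites were intergenic, beside 4.62% of the member sites. Near starts the word was found in 3 of 3 E18.5 sites, in 6 of 16 P0 sites, in 0 of 2 adult WT sites and in 2 of 6 adult HET sites, beside 10.9%, 12.2%, 10.7% and 12.3% of the sites near starts of all genes. The 3 E18.5 sites, at Col5a2, Col23a1 and Col12a1, overlapped 3 of the 6 P0 sites and are not separate evidence. Elsewhere in the gene bodies 1 of 14, 10 of 49, 8 of 57 and 15 of 93 member sites held the word, in the same order. For all genes the shares elsewhere in the body were 18.1%, 16.1%, 14.3% and 14.5%. Away from starts the E18.5 member share, 7.14%, was therefore below that of all genes. The 3 cores printed above for shared loci at Col27a1, Col22a1 and Col1a1 did not contain the word.

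After the sequences had been seen, TTGGCA and the CTCF core motif were counted in the same windows. TTGGCA was held by 2, 11, 6 and 9 member sites (11.8%, 16.9%, 10.2% and 9.09%), beside 13.7%, 12.2%, 9.79% and 7.76% of all sites. The CTCF core was held by 1, 3, 0 and 1 member sites, beside 1.69%, 3.57%, 0.414% and 0.177% of all sites. These 5 sites were 3 loci, namely the Col12a1 site of E18.5 and P0, the Col1a1 site of P0 and adult HET cortex, and a P0 site in intron 28 of Col25a1. Col12a1 thus carried both the CTCF core and AAAGTT in the same 151 bp.

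Genes that act on collagen were counted by the same target rule. Of 31 processing enzymes and chaperones, which hydroxylate, glycosylate, fold, trim and crosslink collagen chains, 10, 12, 6 and 5 were targets (32.3%, 38.7%, 19.4% and 16.1%), beside the 30%, 45.9%, 20.1% and 23.4% of all genes given above. Of these 31, 24 had CpG-rich promoters. Colgalt1, which adds galactose to hydroxylysine, was a target of all 4 lists, as were 4.75% of all genes. Of 12 collagen receptors 1, 2, 1 and 2 were targets, of 7 collagen-degrading enzymes 1, 3, 0 and 0, and of 11 laminins 2, 5, 1 and 2. Among 24 other basement membrane and matrix proteins 4, 8, 4 and 5 were targets. Of these, Tnr (tenascin-R) and the chondroitin sulfate proteoglycans Vcan and Ncan were targets of all 4 lists. Related genes of the list were not: Bcan, Acan, Reln and Tnxb had 0 sites near a start in each list, and Tnc had 1 in adult WT cortex only. No collagen receptor, collagen-degrading enzyme or laminin was a target of all 4 lists.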

How the data were processed

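CUT&RUN libraries with a MYT1L antibody (12) and control IgG (12, not analysed here) were grouped by their labels. By the methods, the authors ran nf-core/cutandrun 1.0, with mm10 named in the labels. For the aligner, peak caller, threshold and IgG use, nothing was given in the sources used here. Positions, not levels, were deposited: the authors' files give chromosome, start and end of each site, merged over 3 libraries per group. The methods give a cell number per animal, split between MYT1L antibody and IgG. The labels do not state which libraries share an animal.

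Genes and starts were those of the GENCODE M21 basic set on GRCm38, the mm10 assembly, on 21 chromosomes. Overlap needed 1 bp. Intervals are exact binomial (Clopper-Pearson) or exact Poisson at 95% and cover counting error only. Analyses used Python 3.11.15, numpy 2.4.6, scipy 1.17.1, pysam 0.24.0 and matplotlib 3.10.9, with the overlap and target code tested on simulated data. The members, gene lists and the AAAGTT word were chosen with earlier results of these data known. Members were named when among the 5 with most site bp near starts or the 5 with most body sites in a list, as head-to-head pairs, when without a site, or when adult WT and HET differed. Alternatives changed the distance, starts, site midpoint, width, repeats, overlap, motif window and promoter window. Col26a1, Col27a1 and the CTCF and TTGGCA words were named after values or sequences were seen.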

Additional observations from a re-analysis of the deposited data

How the results depend on the processing

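No paired analysis was possible because each group is 1 merged list. Of 85 alternative values, 60 stayed within 1.5 times a count or within the counting interval of a share. The interval is wide where sites are few, so large moves can stay within it. The AAAGTT share of the 17 E18.5 sites, for example, went from 23.5% to 47.1% when the whole site was read. Targets numbered 1, 7, 0 and 2 at 1 kb and 5, 17, 7 and 9 at 10 kb (E18.5, P0, adult WT, adult HET). At 1 kb this was 2.27%, 15.9%, 0% and 4.55% of members, beside 26.7%, 40%, 11.8% and 9.01% of all genes. At 10 kb it was 11.4%, 38.6%, 15.9% and 20.5%, beside 33.9%, 52%, 27.9% and 36.1%. With the starts of all GENCODE transcripts, chosen after seeing the data, targets were 5 at E18.5, 7 in adult WT and 11 in adult HET cortex. The shares were 11.4%, 15.9% and 25%, beside 31.7%, 24.6% and 30.4% of all genes. Keeping only sites wider than the list median left 0, 6 and 0 targets at E18.5, P0 and adult WT. That was 0%, 13.6% and 0%, beside 17.4%, 34.2% and 12.7% of all genes. It left 5, 15, 15 and 17 members with body sites, at 0.0932, 0.429, 0.503 and 0.708 sites per 100 kb in the 4 lists. That setting drops sites by construction. Sites under 50% repeat left 1 adult WT target (2.27%, beside 18.7% of all genes). When an overlap had to cover 50% of a site, 0% of E18.5 and 0% of adult WT sites were shared with adult HET. The HET sites were narrower, with a median of 105 bp beside 502 and 159 bp, which limits how much they can cover. Counted from the HET sites, the shares stayed at 2.02% in E18.5 and 3.03% in adult WT. The number of members with a CpG-rich promoter stayed within 1.5 times. Without scores or replicates, support for a single site could not be graded, and list length and width may follow depth, which was not tested.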
